A study of Mus musculus with 8 samples.

Results

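The core circadian clock genes were examined as 10 rows of the deposited tables, chosen by symbol: Arntl, Clock, Per1, Per2, Per3, Cry1, Cry2, Nr1d1, Nr1d2 and Dbp. All 10 were among the 24341 genes listed and among the 11096 that could be tested. The tables hold RNA of tibialis anterior, the mostly fast-twitch muscle at the front of the shin, taken from 8 chow-fed mice aged 12 weeks that are all described as male. In 4 knockouts (Carm1 skm-/-) floxed Carm1 was combined with 1 copy of the HSAcre transgene, a Cre recombinase driven by the skeletal actin promoter, so deletion is directed to muscle fibres and other cells keep the gene. The 4 controls (Carm1 skm+/+, titled Carm1_wildtype) carried floxed Carm1 without HSAcre, so Cre and loss of Carm1 go together in every library. Carm1 encodes an arginine methyltransferase and transcriptional coactivator. The design sets muscle with Carm1 against muscle in which its deletion is directed to fibres. The hour at which the muscles were collected is not stated in the labels, and neither is the lighting schedule.

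The mammalian clock is a loop of transcription and translation. ARNTL (also called BMAL1) and CLOCK bind E-box sequences and activate the Per, Cry and Nr1d genes and Dbp. PER and CRY proteins then inhibit ARNTL and CLOCK, and the NR1D (REV-ERB) receptors repress Arntl, so that Arntl RNA peaks at the time of day when Dbp and Nr1d1 RNA are at their trough. Skeletal muscle fibres have such a clock of their own.

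Because the loop runs through known sequence elements, the 250 bases before each annotated start were searched for 4 motifs on both strands (RefSeq sequences, GRCm38.p6). Of the 10 genes 9 had an entry, with 13 windows in all, and Per2 had none. The motifs were CACGTG, the E-box, which is its own reverse complement; CACGTT, an E-box variant; AGGTCA, the half-site of nuclear receptors, NR1D proteins included; and TTATGTAA, the D-box bound by DBP and its relatives. CACGTG was found before Per1 and Cry1, CACGTT before Cry1, Cry2 and Nr1d1, AGGTCA before Per1, Nr1d2 and 1 of the 3 Clock starts, and TTATGTAA, at 2 places, before Per3. Of 32536 distinct windows of this length over all genes, 6.04% hold CACGTG, 3.87% CACGTT, 14% AGGTCA and 0.811% TTATGTAA. The windows of Arntl and Dbp held none of the 4. Only exact letters in these windows were counted, so a missing match does not show that a gene lacks such an element. A match is a run of letters and not a shown binding site. Printed here, to show where such letters stand relative to the start, are 4 of the 5 windows with E-box, variant or D-box letters, with matches in capitals, 5′ to 3′ on the strand of the gene. They lie at chr11:69098699-69098948 on the plus strand (Per1, CACGTG from 166 bases before the start and AGGTCA, on the other strand, from 137), at chr10:85185055-85185304 on the minus strand (Cry1, CACGTT on the other strand from 79 and CACGTG from 60), at chr4:151044666-151044915 on the minus strand (Per3, TTATGTAA from 205 and 158) and at chr11:98775378-98775627 on the minus strand (Nr1d1, CACGTT on the other strand from 28). No matches overlap.
Per1: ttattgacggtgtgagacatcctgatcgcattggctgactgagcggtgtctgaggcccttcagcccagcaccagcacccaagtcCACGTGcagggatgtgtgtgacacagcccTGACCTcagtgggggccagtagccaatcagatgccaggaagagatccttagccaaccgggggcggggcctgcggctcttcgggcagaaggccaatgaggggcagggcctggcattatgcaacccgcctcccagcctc
Cry1: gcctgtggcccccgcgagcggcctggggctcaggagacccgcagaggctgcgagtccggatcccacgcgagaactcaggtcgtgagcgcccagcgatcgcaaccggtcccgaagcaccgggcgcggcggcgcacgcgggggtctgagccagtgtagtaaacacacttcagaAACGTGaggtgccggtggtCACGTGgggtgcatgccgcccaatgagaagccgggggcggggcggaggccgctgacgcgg
Per3: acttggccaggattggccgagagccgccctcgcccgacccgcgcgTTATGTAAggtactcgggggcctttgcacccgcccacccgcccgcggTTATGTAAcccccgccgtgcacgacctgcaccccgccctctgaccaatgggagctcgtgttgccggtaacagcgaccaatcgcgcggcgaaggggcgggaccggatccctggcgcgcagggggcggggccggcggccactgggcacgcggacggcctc
Nr1d1: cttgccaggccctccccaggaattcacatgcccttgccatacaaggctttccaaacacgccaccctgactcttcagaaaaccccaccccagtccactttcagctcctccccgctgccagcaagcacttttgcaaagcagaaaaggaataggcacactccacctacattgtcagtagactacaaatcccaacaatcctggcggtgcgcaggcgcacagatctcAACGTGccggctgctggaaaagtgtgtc

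Levels are given as scaled FPKM, that is the deposited FPKM, sequenced fragments per unit of transcript length and of library size, divided by a factor per library between 0.904 and 1.07. Differences are given on the scale log2(scaled FPKM + 1), which understates changes of low genes. Summed FPKM lay between 604428 and 681042 per library, and read counts are not known from these tables. Carm1 was lower in every knockout than in every control, at 26.5, 36.0, 24.7 and 31.0 FPKM in controls 1 to 4 and 18.4, 13.5, 16.5 and 14.7 FPKM in knockouts 1 to 4. Its log2 difference was -0.94 (95% interval -1.26 to -0.62, limma adjusted p = 0.0467). Carm1 RNA was thus reduced in the knockouts but not absent, and how much of it came from fibres was not tested. Xist, the RNA of the inactive X chromosome of females, stood at 19.6 FPKM in control 1, 22.9 in knockout 2 and 20.5 in knockout 4, and at or under 0.0662 FPKM in the other 5, although all mice are described as male. Muscle fibre markers were abundant: the myoglobin gene Mb lay between 8006 and 15083 scaled FPKM. Acta1, Ckm, Tnnt3 and Atp2a1 were listed at 0 in some libraries, with a status other than OK in the authors' tables, and were left out. These values of 0 fell unevenly on the genotypes. Acta1 was at 0 in controls 1, 2 and 4 and knockout 1, and Ckm in controls 1 to 3 and knockout 1. Tnnt3 was at 0 in controls 1 to 4 and knockouts 1 and 3, and Atp2a1 in control 1 and knockouts 1 and 3. RNA of other cells of the muscle is included, and fewer cells of a type cannot be told apart from less RNA per cell.

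Arntl, which encodes the activator BMAL1, split the 8 libraries into sets that did not touch. It stood at 1.5, 2.5, 11.1 and 2.32 scaled FPKM in controls 1 to 4 and at 13, 3.25, 12 and 1.18 in knockouts 1 to 4. Control 3, knockout 1 and knockout 3 were high and the other 5 low, with nothing between 3.25 and 11.1. Both genotypes were in both sets, 1 high of 4 controls and 2 high of 4 knockouts. The highest library held 11.1 times the level of the lowest. Its partner Clock varied far less, at 2.57, 2.44, 3.67 and 3.21 in controls and 5.19, 3.69, 4.08 and 3.13 in knockouts, a range of 2.13 times. Knockouts 1 and 3 had the highest Clock, knockout 2 at 3.69 stood level with control 3 at 3.67, and the genotypes overlapped. Npas2, a relative of Clock that can replace it, was at or under 0.306 scaled FPKM in every library and was not tested.

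The 2 REV-ERB genes and Dbp were lowest in the same 3 libraries in which Arntl was highest. Nr1d1 (REV-ERB alpha), a repressor of Arntl, stood at 19.6, 43.9, 9.92 and 79.5 scaled FPKM in controls and at 11.8, 17.2, 14.1 and 41.3 in knockouts. Control 4, control 2 and knockout 4 were high, and the highest level was 8.01 times the lowest. Nr1d2 (REV-ERB beta) stood at 42.8, 33.3, 19.9 and 39.3 in controls and at 18.4, 39.2, 22.0 and 39.2 in knockouts, so that 5 libraries lay between 33.3 and 42.8 and 3 between 18.4 and 22.0. Dbp, a transcription factor that carries the rhythm to output genes, had the highest levels of the 10 genes, at 108, 139, 32.5 and 156 in controls and 27.4, 56.8, 41.6 and 134 in knockouts. Its order from high to low was the same as that of Nr1d1 except that control 3 and knockout 1 changed places at the bottom. All 3 genes overlapped between the genotypes.

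The Per genes, which encode the inhibitors of the loop, shared this arrangement in part. Per3 stood at 13.3, 12.3, 5.06 and 11.4 scaled FPKM in controls and 6.32, 10.4, 7.39 and 11.8 in knockouts. Per2 stood at 8.11, 7.61, 4.03 and 6.41 in controls and 4.88, 6.99, 5.31 and 7.15 in knockouts. In both, control 3, knockout 1 and knockout 3 were the lowest and control 1 the highest, and the range was 2.63 times for Per3 and 2.01 times for Per2. Per1, which also answers to glucocorticoids and to CREB signalling, stood at 29.7, 21.6, 9.34 and 26.4 in controls and 17.9, 23.1, 10.7 and 16.6 in knockouts. Here control 3 and knockout 3 were low, while knockout 1 stood above knockout 4.

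The Cry genes, which encode partners of the PER proteins, were high in different libraries. Cry1 was highest in the 3 libraries with high Arntl, at 7.66 in control 3, 8.11 in knockout 1 and 8.45 in knockout 3, and lay between 5.30 and 7.35 in the other 5. Its range, 1.59 times, was the narrowest of the 10 genes. Cry2 stood at 15.5, 15.6, 12.3 and 13 scaled FPKM in controls and 8.61, 11.3, 9.11 and 15.1 in knockouts. Only knockout 4 among the knockouts reached the control levels of Cry2, and the genotypes therefore overlapped.

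**Figure D1:**
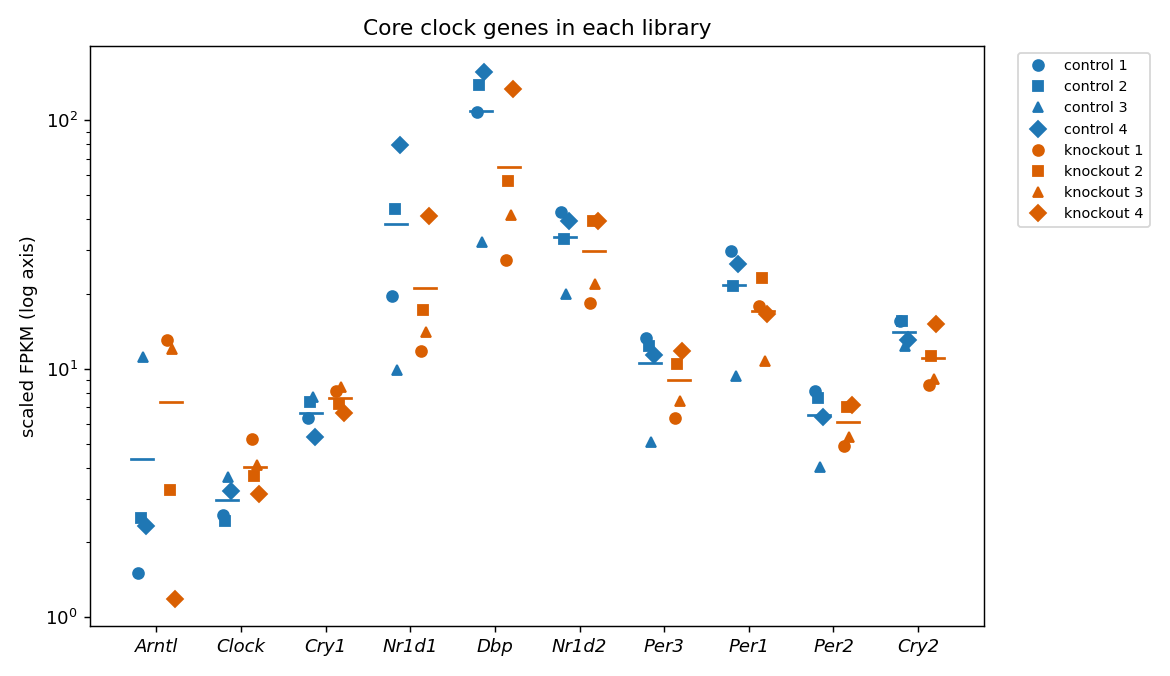
Scaled FPKM (log axis) of the 10 clock genes, 1 point per library, controls in blue and knockouts in orange, with a symbol for each replicate number and horizontal lines for the arithmetic group means (n = 4). Control 3, knockout 1 and knockout 3 have the highest Arntl, between 11.1 and 13, and the lowest Nr1d1, Nr1d2, Dbp, Per2 and Per3.

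Some neighbouring genes bear on these values, since Cufflinks estimates how reads divide between overlapping genes and the labels name no strand-marking library kit. In GENCODE M21 (the assembly of mm10) the 3′ end of Nr1d1 (chr11:98767932-98775333, minus strand) overlaps that of Thra (chr11:98740638-98769006, plus strand), and the 3′ end of Dbp (chr7:45705088-45710203, plus strand) overlaps that of Sphk2 (chr7:45709467-45718002, minus strand). Thra lay between 15.5 and 29.5 scaled FPKM and Sphk2 between 4.33 and 8.86. The deposited row of Clock gives a locus of chr5:76183880-76469519 that it shares with Tmem165, Nmu, Pdcl2 and Mir1191, against chr5:76209868-76304792 for Clock alone in GENCODE. Cry2 shares its locus with D930015M05Rik, which was at or under 0.571 scaled FPKM. In the deposited loci the other 7 members share no position with another listed gene.

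The relations among genes were measured over the 8 libraries as correlations of log2 values, each with an exact permutation of the 40320 pairings (2-sided) and Benjamini-Hochberg adjustment over all 45 pairs. For the 9 pairs with Arntl no coefficient is given: its largest gap between neighbouring libraries took 56% of its range (26.8% to 48.9% in the other 9 genes), and neither set holds the 6 libraries a coefficient needs. The limit of 50% for such a gap was chosen after the values were seen. In the 36 other pairs the signs formed 2 blocks. Clock and Cry1 went together, the 3 Per genes, both Nr1d genes, Dbp and Cry2 went together, and every pair across the blocks was negative, which gives 22 positive and 14 negative pairs. Of these 36 pairs 15 passed at an adjusted p under 0.05, 10 positive and 5 negative. The share of passing pairs among other genes was not computed, so the count is not shown to be particular to clock genes. All 36 pairs kept their sign when values were taken as deviations from the mean of each genotype.

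The closest pair was Per2 and Per3, with a Pearson r of 0.98 (exact permutation p = 0.000223, adjusted 0.00502) and a Spearman rho of 0.98 (exact p = 0.000397). Clock and Cry2 ran in exactly opposite order, with r = -0.94 (exact permutation p = 2.48e-05, the smallest that the pairings allow, adjusted 0.00112) and rho = -1.0 (exact p = 4.96e-05). Dbp went with Nr1d1 at r = 0.91 (exact permutation p = 0.00179, adjusted 0.0237) and rho = 0.98 (exact p = 0.000397), and with Per3 at r = 0.90 (exact permutation p = 0.00211, adjusted 0.0237) and rho = 0.76 (exact p = 0.0368). Cry1 went against Nr1d2 at r = -0.76 (exact permutation p = 0.0229, adjusted 0.0491) and rho = -0.88 (exact p = 0.00724). These 5 pairs, chosen for this property, also had a p under 0.05 without the 2 libraries farthest from the median of the gene listed first among the members, at r = 0.94, -0.91, 0.91, 0.82 and -0.88 in the order named. The other 10 of the 15 kept their sign but no longer had a p under 0.05 without those 2 libraries, and adjusted over the 45 pairs 0 passed there. With 6 libraries there are fewer pairings, so a lost p alone does not show that a relation rests on the 2 left out, and r itself moved by different amounts. It stayed at -0.78 for Cry1 with Dbp and went from 0.94 to 0.88 for Per3 with Nr1d2, from 0.90 to 0.80 for Per2 with Nr1d2 and from -0.84 to -0.73 for Clock with Dbp. For Cry2 with Dbp it went from 0.82 to 0.67, for Nr1d2 with Dbp from 0.86 to 0.64 and for Per2 with Dbp from 0.82 to 0.59. It fell most for Per1 with Per2, from 0.80 to 0.49, and Per1 with Per3, from 0.81 to 0.52, and went from -0.78 to -0.51 for Cry1 with Nr1d1. Leaving out single libraries also lowered the count of 15, to 3, 9, 12 and 8 without control 1, 2, 3 or 4 and to 0, 2, 2 and 9 without knockout 1, 2, 3 or 4. Each of these sets had 7 libraries, so the count depended on which library was left out. Presence of Xist splits the libraries into 3 and 5, too few for coefficients within either.

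**Figure D2:**
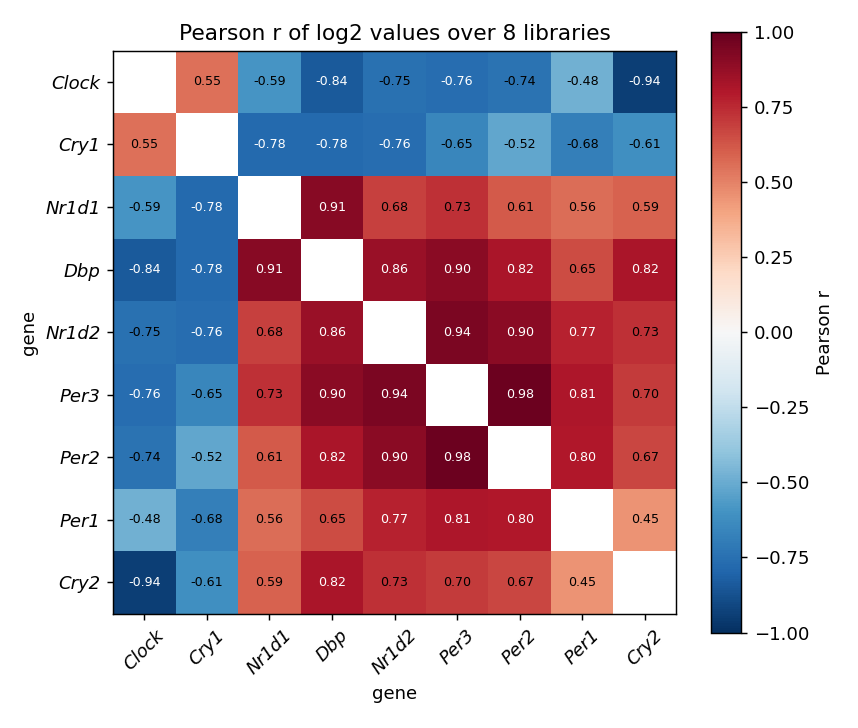
Pearson r of log2(scaled FPKM + 1) over 8 libraries for the 36 pairs without Arntl, from -1 in blue to 1 in red. Clock and Cry1 are negative against each of the other 7 genes and those 7 are positive among themselves, with the highest value, 0.98, between Per2 and Per3.

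The weakest positive relation of Nr1d1 was with Per1, at r = 0.56 (exact permutation p = 0.154, adjusted 0.169; rho = 0.62, exact p = 0.115; 0.15 without the 2 farthest libraries). The ratio of these genes and that of Dbp to Arntl, both picked after the values were seen, place the libraries relative to each other. The log2 ratio of Dbp to Arntl was 6.16, 5.80, 1.56 and 6.07 in controls and 1.07, 4.13, 1.79 and 6.84 in knockouts. Control 3, knockout 1 and knockout 3 lay between 1.07 and 1.79, knockout 2 apart at 4.13, and the other 4 between 5.80 and 6.84. The log2 ratio of Nr1d1 to Per1 was -0.60, 1.02, 0.09 and 1.59 in controls and -0.60, -0.43, 0.39 and 1.31 in knockouts. It separated control 1, at -0.60 with low Arntl and the highest Per1, Per2 and Per3 of all libraries, from control 2, control 4 and knockout 4, which had low Arntl too but ratios between 1.02 and 1.59. Knockout 2, also with low Arntl, lay near control 1 on this ratio, at -0.43. Libraries of the 2 genotypes were interleaved on both ratios.

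**Figure D3:**
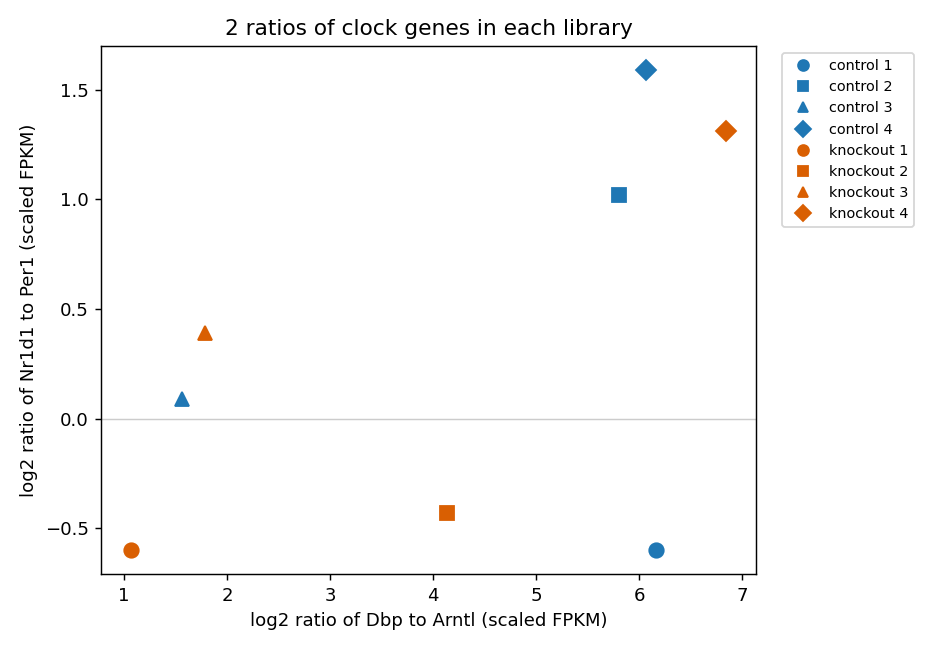
Log2 ratio of Dbp to Arntl (horizontal) against log2 ratio of Nr1d1 to Per1 (vertical), both of scaled FPKM, 1 point per library with controls in blue and knockouts in orange. Control 3, knockout 1 and knockout 3 lie at 1.79 or less on the horizontal axis. On the vertical axis control 1 lies at -0.60 and knockout 2 at -0.43, while control 2, control 4 and knockout 4 lie at 1.02 or more.

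The 3 libraries with high Arntl were all without Xist, and the 3 with Xist all had low Arntl, as did control 2 and control 4 without it. The part of this arrangement in the clock values was not tested. Of 9 muscle fibre markers, 5 had an estimate in every library (Mb, Myl1, Mylpf, Actn3 and Pvalb). They summed to between 65306 and 88265 scaled FPKM in controls and between 42991 and 62028 in knockouts, without overlap. Taken singly, only Mylpf of the 5 was without overlap, against 8.31% of all genes tested, and Mylpf was the largest term of the sum. None of the 5 was called. Summed markers of other cell types overlapped between the genotypes: 6 endothelial genes lay between 211 and 247 scaled FPKM in controls and 179 and 232 in knockouts, 6 fibro-adipogenic genes between 233 and 510 and between 202 and 361, and 5 smooth muscle genes between 211 and 337 and between 203 and 242. Markers of macrophages lay between 9.46 and 16.9 in controls and 10.1 and 17.3 in knockouts, of adipocytes between 9 and 20 and between 4.16 and 22.7, and of Schwann cells between 80.3 and 125 and between 81.4 and 98.8. Those of blood lay between 173 and 296 and between 191 and 417, and those of tendon between 33.7 and 83.5 and between 47 and 118. None of these markers of other cells was at exactly 0 in any library, though some were close to it, and limma called none of those tested. The blood marker Hbb-bs, which was not tested, lay between 0.00404 and 0.00554 scaled FPKM in controls. It stood at 10.6, 5.97, 6.82 and 0.00664 in knockouts 1 to 4. Gene by gene, the log2 differences mostly had 1 sign within a list: all 6 endothelial, 6 fibro-adipogenic, 5 smooth muscle and 5 Schwann cell markers were lower on average in knockouts, as were all 5 muscle fibre markers, while the 4 macrophage markers tested were higher. Of the 3 blood markers tested Hbb-bt was higher, at 0.46, while Hba-a1 and Alas2 hardly differed, at 0.03 and 0.00. Without scaling 1 of the 5 Schwann cell markers was higher instead, and with quantile normalization 1 of 5 muscle fibre markers was higher and 1 of 3 blood markers lower. At an unadjusted p under 0.05 there were 3 of 6 fibro-adipogenic markers (Col3a1, Dpt and Smoc2; 0 without scaling and 1 with quantile normalization), Cnn1 of smooth muscle, Mylpf of muscle fibres and Scx of tendon. The share of all genes tested at that limit was 13.1%. Scx was also higher in every knockout than in every control, at 26.7, 8.77, 6.57 and 9.51 scaled FPKM in knockouts 1 to 4 against between 4.56 and 6.41. Groups were without overlap in 8.31% of all genes tested. Of the 4 tendon markers tested 3 were higher in knockouts and 1, Thbs4, was lower, with a log2 difference of -0.23. The part of these marker levels in the clock values was not tested either.

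Spread within genotypes was wide for most of the 10 genes. The SD of log2 values within genotypes was 1.17 for Arntl, 1.04 for Nr1d1 and 0.989 for Dbp, against a median of 0.162 over the 11096 genes tested. These 3 were at ranks 81, 99 and 110 from the widest. Per1, Nr1d2 and Per3 had SDs of 0.586, 0.512 and 0.484, wider than 97.1%, 96% and 95.3% of genes tested, and Per2, Cry2, Clock and Cry1 had 0.321, 0.265, 0.227 and 0.177, wider than 87.2%, 80.3%, 72.4% and 56.3%. Both Cry genes and Clock were the narrowest of the 10, though each had an SD above the median of 0.162.

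Neither genotype had the wider spread throughout. The SD was larger in knockouts for 4 of the 10 genes, against 50.0% of all genes tested, and larger in controls for 6. Arntl had an SD of 1.01 in controls and 1.30 in knockouts, Cry2 0.164 and 0.338, Clock 0.206 and 0.246, and Nr1d2 0.477 and 0.545. In the other direction Nr1d1 had 1.26 in controls and 0.767 in knockouts, Per1 0.708 and 0.431, Per3 0.573 and 0.375, Per2 0.387 and 0.238, Cry1 0.208 and 0.140, and Dbp 1.02 and 0.955 (log2 scale, n = 4 each). For the log2 ratio of Dbp to Arntl the SD was 2.23 in controls, with values from 1.56 to 6.16, and 2.60 in knockouts, with values from 1.07 to 6.84. For that of Nr1d1 to Per1 it was 0.974 and 0.876. These differences in spread were not tested.

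**Figure D4:**
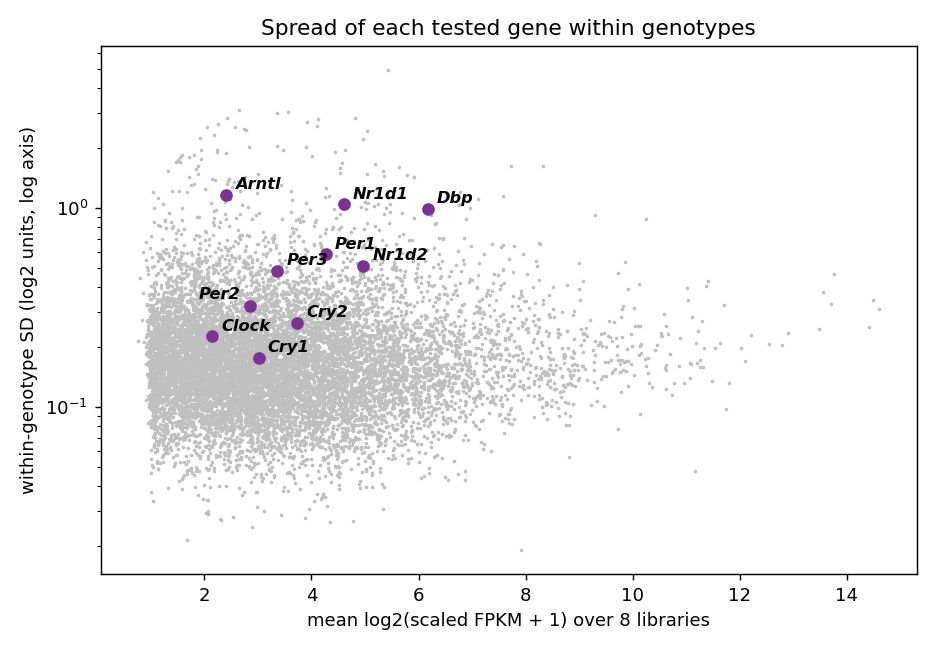
Within-genotype SD of log2(scaled FPKM + 1) (log axis) against the mean over 8 libraries for the genes tested, with the 10 clock genes in purple. Arntl, Nr1d1 and Dbp lie near or above an SD of 1, and Cry1, at 0.177, lies close to the median of all genes, 0.162.

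None of the 10 clock genes passed the test between genotypes. With limma over all genes (adjusted p under 0.05) 0 of 10 were called, against 0.360% of all genes tested (40 of 11096). At an unadjusted p under 0.05 there was 1 of 10, Clock, against 13.1%, and 0 of 10 had groups without overlap, against 8.31%. The unadjusted count rested on single libraries: it was 3 without control 3 (Clock, Dbp and Per1), 2 without knockout 4 (Clock and Cry2) and 0 without any 1 of the other 6 libraries. It was 3 in the 5 libraries without Xist (Arntl, Clock and Cry2), 4 without knockouts 2 and 4 (Arntl, Clock, Cry2 and Dbp), 2 with Xist as a covariate (Clock and Cry2), 2 without scaling (Clock and Cry1), and 0 with quantile normalization, with the replicate block, with no filter and with the filter on means, which left out Clock. Knockout means were lower for 7 of the 10, with a median log2 difference of -0.18, against 50.5% lower and a median of 0.00 over all genes. The call count was 0 in each of the 18 alternative fits, and the smallest adjusted p of any member in them was 0.117 (Cry2, with Xist as a covariate). The count of 40 was 11, 12, 6 and 2 without control 1, 2, 3 or 4 and 7, 12, 27 and 4 without knockout 1, 2, 3 or 4.

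With 4 against 4 libraries the intervals were wide for the most variable genes. Clock had means of 2.97 ± 0.572 in controls and 4.02 ± 0.873 in knockouts (scaled FPKM, SD, n = 4 each) and a log2 difference of 0.33 (95% interval 0.00 to 0.66, limma adjusted p = 0.377). Cry2 had 14.1 ± 1.70 and 11 ± 2.96 and a log2 difference of -0.35 (-0.73 to 0.02, limma adjusted p = 0.414), and Cry1 had 6.66 ± 1.07 and 7.61 ± 0.825 and 0.17 (-0.10 to 0.44, limma adjusted p = 0.578). Arntl had 4.35 ± 4.50 and 7.37 ± 6.03, with a log2 difference of 0.57 and an interval from -0.98 to 2.12. Dbp, at 109 ± 54.7 and 65.0 ± 47.7, had a difference of -0.77 (-2.09 to 0.55), and Nr1d1, at 38.2 ± 31.0 and 21.1 ± 13.6, one of -0.61 (-2.0 to 0.78). The standard error was 0.683 for Arntl, 0.613 for Nr1d1 and 0.581 for Dbp, against a median of 0.113 over all genes tested. Per1, Nr1d2, Per3 and Per2 differed by -0.27, -0.20, -0.17 and -0.07, with limma adjusted p-values of 0.800, 0.828, 0.852 and 0.911.

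Single libraries set the size of these differences. The difference of Arntl was 0.19 without knockout 1 and 1.09 without knockout 4, that of Dbp -0.45 without knockout 1 and -1.27 without control 3, and that of Nr1d1 -0.14 without control 4 and -1.10 without control 3. The difference of Per2 changed sign when control 1 was left out (0.03), when control 2 was (0.01), when knockout 1 was (0.02) and on FPKM without scaling (0.01). In the 5 libraries without Xist, Arntl stood at 1.38, Dbp at -1.38 and Nr1d1 at -1.29, and without knockouts 2 and 4 they stood at 1.64, -1.44 and -1.11, none of them past the test (limma adjusted p between 0.329 and 0.552).

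**Figure D5:**
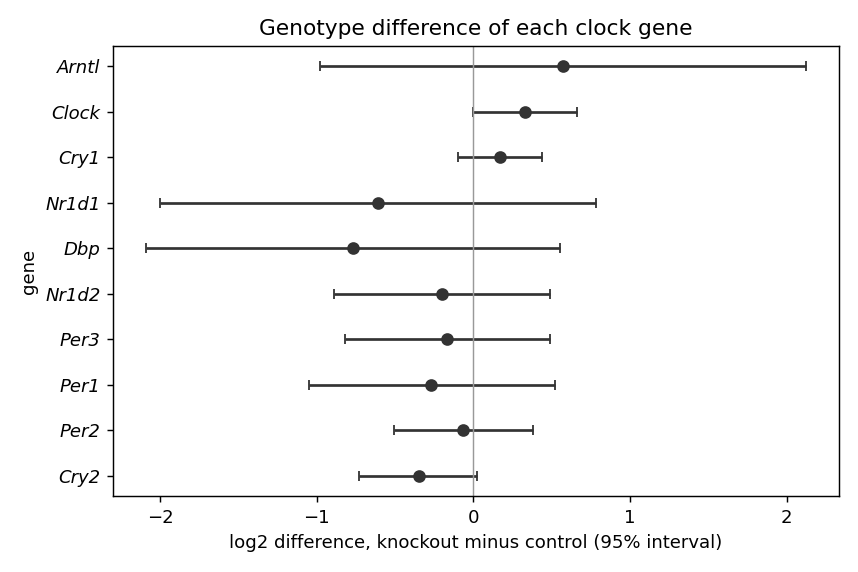
Log2 difference, knockout minus control, on the scale log2(scaled FPKM + 1) for each clock gene, with 95% intervals from limma (n = 4 each). The intervals of Arntl, Nr1d1 and Dbp are the widest, from -0.98 to 2.12 for Arntl, and all but that of Clock, which starts at 0.00, include 0.

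Further factors of the loop were not called between genotypes. Of 11 listed, 9 could be tested and limma called 0 (1 at an unadjusted p under 0.05, against 13.1% of all genes tested), with 7 lower in knockouts and a median log2 difference of -0.05. Bhlhe41 and Bhlhe40, which encode the repressors DEC2 and DEC1, had the smallest p in this list. Bhlhe41 stood at 8.10, 14.8, 7.50 and 16.2 scaled FPKM in controls and 5.59, 5.0, 7.26 and 8.69 in knockouts, a log2 difference of -0.68 (limma adjusted p = 0.311). Bhlhe40 stood at 46.0, 37.4, 29.7 and 63.7 and at 21.3, 23.0, 20.6 and 52.7, a difference of -0.63 (limma adjusted p = 0.459). Both overlapped between genotypes, and control 4 was the highest library of each.

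Nfil3, a repressor that binds the same D-box as DBP, ran against Dbp; Nfil3 and the relatives of Dbp, Tef and Hlf, were chosen here after their values were seen. Nfil3 stood at 26.4, 16.1, 50.8 and 11.3 scaled FPKM in controls and 28.4, 24.2, 42.6 and 7.97 in knockouts, highest in the 3 libraries with high Arntl. Its likeness to Dbp was r = -0.82 and rho = -0.83 over 8 libraries, given as a description. Hlf lay between 2.04 and 5.22 and Tef between 59.9 and 116, with r = 0.95 (rho = 0.98) to Dbp for Hlf and r = 0.87 (rho = 0.86) for Tef. The ratio of Dbp to Nfil3 ran from 0.640 in control 3 to 13.8 in control 4 among controls and from 0.967 in knockout 1 to 16.8 in knockout 4 among knockouts.

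The gene most like Dbp among 6779 searched (mean of at least 5 scaled FPKM, members left out) was Ciart, a repressor of the CLOCK complex also called CHRONO, with r = 0.98 and rho = 0.95 over 8 libraries. It stood at 9.61, 10.1, 2.39 and 15.0 scaled FPKM in controls and 1.58, 3.96, 2.18 and 9.40 in knockouts, so control 3, knockout 1 and knockout 3 were again the lowest. Next came Sema6c, a semaphorin, and Gstt2, a glutathione transferase, both at r = 0.97, then Mtmr3, a lipid phosphatase, and Stard3, a cholesterol-binding protein, both at 0.96. Mtmr3 lay only between 14.6 and 17.2 scaled FPKM. These coefficients are the highest of 6779 over 8 libraries and were not tested. They do not show that the genes are regulated together with Dbp. The 5 genes ranked most like Arntl by the same measure were, in order, Rbmx (an RNA-binding protein), Nfx1, Lsg1, Timp4 and Slc25a36. The measure served only to rank them, and no coefficient is given because Arntl has 2 separate sets of values. Rbmx lay between 20.9 and 22.2 scaled FPKM in those 3 and between 14.2 and 17.4 in the other 5, and Timp4, a metalloproteinase inhibitor, between 101 and 116 and between 63.4 and 76.2. Slc25a36, a mitochondrial nucleotide carrier, lay between 7.83 and 10.4 and between 3.52 and 4.98.

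Enzymes that modify clock proteins, and genes downstream of the clock, were not called between genotypes either. For comparison, 13.1% of all genes tested had an unadjusted p under 0.05 in limma and 8.31% had groups without overlap. Of 11 kinases and ubiquitin ligases 10 were tested and 0 called (0 at an unadjusted p under 0.05), with 4 higher, 6 lower and a median of -0.02; the ligase gene Huwe1 stood at 0.19 and the casein kinase gene Csnk1a1 at -0.14 on the log2 scale. Of 12 output genes shared by many tissues 11 were tested and 0 called (1 at an unadjusted p under 0.05), with 6 higher, 5 lower and a median of 0.05. Alas1, the first enzyme of haem synthesis, stood at 72.2 ± 4.45 in controls and 56.6 ± 2.83 in knockouts (scaled FPKM, SD, n = 4 each), without overlap and with a limma adjusted p of 0.106, and Por, the cytochrome P450 reductase, stood at 0.14. Of 11 outputs in muscle all 11 were tested and 0 called (1 at an unadjusted p under 0.05), with 4 higher, 7 lower and a median of -0.25. The glucose transporter gene Slc2a4 stood at 359 ± 46.3 and 270 ± 14.1, without overlap (limma adjusted p = 0.154), and Pfkfb3, a regulator of glycolysis, at 23.7 ± 18.4 and 9.88 ± 4.24.

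Per1 answers to glucocorticoids and to CREB signalling, and targets of these signals were read from 2 lists. The shares of all genes tested were again 13.1% at an unadjusted p under 0.05 in limma and 8.31% without overlap. Of 13 glucocorticoid targets, 5 of them also in other lists, Per1 included, all 13 were tested and 0 called (0 at an unadjusted p under 0.05), with 5 higher, 8 lower and a median of -0.18. The ubiquitin ligase gene Trim63 stood at -0.63 and the kinase gene Sgk1 at -0.23. Trim63 was at 416 scaled FPKM in control 3, between 131 and 160 in the other controls and between 90.8 and 137 in knockouts, so the genotypes overlapped. Of 10 activity and CREB targets 8 were tested and 0 called (2 at an unadjusted p under 0.05), with 1 higher, 7 lower and a median of -0.31. Nr4a1, an orphan nuclear receptor, stood at 115 ± 46.9 in controls and 49.3 ± 9.77 in knockouts (scaled FPKM, SD, n = 4 each), without overlap (limma adjusted p = 0.125), and the immediate early gene Ier2 stood at -0.26.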

How the data were processed

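Total RNA of snap-frozen muscle was extracted with Trizol and made into TruSeq libraries, per the labels' protocols, and the submitters' processing notes name STAR, Cufflinks and mm10, with no version or annotation. Each library has its own table of FPKM made and deposited by the authors, with Cufflinks columns per the file headers. They hold no counts, so depth is unknown and no count model was run. The 23 genes whose status was not OK throughout were left out. Scaling used median-of-ratios factors from 10180 genes that reached 1 FPKM in every library, and values were analysed as log2(scaled FPKM + 1). A gene was tested if 4 or more libraries reached 1 scaled FPKM, with limma 3.58.1 in R 4.3.3 (eBayes with a trend), Benjamini-Hochberg adjustment and a threshold of 0.05, and the fit was tested on simulated data. Correlations and figures were made in Python 3.11.15 (numpy 2.4.6, scipy 1.17.1, pandas 2.3.3, matplotlib 3.10.9).

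Named genes are all 10 members; in each other list those called or else the 2 with the smallest p; and the 5 genes most like Dbp and the 5 most like Arntl, clone-type and small RNA names skipped. The members and lists were chosen with earlier results of these data known. Each library is 1 animal per the labels. Alternatives were a pseudocount of 0.1, other filters and scalings, leaving out libraries, a replicate block, robust eBayes and Xist (at least 1 FPKM) as a covariate.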

Additional observations from a re-analysis of the deposited data

Results flagged for a closer look

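Arntl in control 3 stood at 11.1 scaled FPKM, far from the other 3 controls at 1.5, 2.32 and 2.5. The gap to its nearest neighbour took 0.896 of the range of the controls, above Dixon's 95% critical value for 4 samples. On the log2 scale the same gap took 0.787 of the range, below that value, while Per3 in control 3, the lowest of the controls at 5.06 scaled FPKM, went from 0.767 of the range to 0.832 on the log2 scale, above that value. On each scale 1 of 20 groups examined, 10 genes in 2 genotypes, passed it, and chance alone gives about 1 such group in 20.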

How the results depend on the processing

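The count of 0 clock genes called held in all 18 alternative fits, in 1 of which (a filter on means under 5 scaled FPKM) Clock was not tested. Over the 10 genes these fits gave 179 log2 differences, of which 175 kept their sign and 4 did not, all of Per2: 0.01 without scaling, 0.03 without control 1, 0.01 without control 2 and 0.02 without knockout 1, in a range from -0.25 to 0.03 over single libraries left out. The count of 40 genes called over the whole table became 8 with no filter, 15 with that filter on means, 223 with Xist as a covariate, 3 in the 5 libraries without Xist and 13 without knockouts 2 and 4, and lay between 2 and 27 when 1 library was left out; the cause was not tested. Without scaling 36 genes were higher and 13 lower, against 22 and 18. With the replicate number as a block 0 genes were called (1313 at an unadjusted p under 0.05, 0 of the 10 clock genes among them). Same-numbered libraries did not deviate together throughout (correlations of -0.432, -0.194, 0.349 and 0.194 for replicates 1 to 4, with 3 of 8 libraries closest to their own number), so the numbers were not taken to pair the samples. The count of 15 pairs past the test was 14 with a pseudocount of 0.1, 12 without scaling, 18 with quantile normalization and 15 for deviations from genotype means, lay between 0 and 12 when 1 library was left out, and was 0 without the 2 libraries farthest from the median of the first gene, where 6 libraries give few pairings. The planned correlation of Arntl with Dbp is not given, because Arntl has 2 separate sets of values. FPKM tables without counts give no depth behind low values such as those of Clock and Npas2.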
